A study of Mus musculus with 5 samples.

Results

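The genes described here are those of endoplasmic reticulum (ER) protein entry, folding and the unfolded protein response (UPR) in sorted mouse pancreatic islet cells. The list holds 50 genes, set by name, and each was read from a probe set annotated with 1 gene symbol, the brightest on average where there were several. Of the 50, 48 had such a probe set among the 19938 genes measured; Sec61g and Srp54a were matched only by probe sets that carry several symbols and were left out. Ero1l and Ero1lb are listed in the annotation as Ero1a and Ero1b. The arrays compared 3 pools of Flattop-positive cells with 2 pools of Flattop-negative cells. Flattop is encoded by Cfap126, a gene of the cilium and of planar cell polarity, and the title of the series sets proliferative against mature β-cells. All mice of both groups were C57BL/6, untreated, 8 to 12 weeks old and heterozygous for Flattop (FVR/+). Each pool held cells of 4 to 6 mice whose sex was not determined, and the 5 pools are the only replicates. The sort was for Flattop among islet cells, with no β-cell gate in the labels, so each pool can mix endocrine cell types. In such bulk RNA, fewer cells of a type and less RNA per cell cannot be told apart.

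A β-cell makes and exports very large amounts of proinsulin, and all of it passes through the ER. The signal recognition particle (SRP) brings the nascent chain to its receptor, the Sec61 channel passes it through the membrane, signal peptidase removes the signal peptide, and chaperones and disulfide isomerases fold it. Chains that fail are returned to the cytosol by ER-associated degradation (ERAD). The sensors IRE1 (Ern1), PERK (Eif2ak3) and ATF6 watch the load, and through XBP1, ATF6 and ATF4 they adjust the genes of this whole route.

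All values are log2 signals, so a difference of 1 unit is a 2-fold change. Cfap126 was at 6.07, 6.07 and 6.24 in the Flattop-positive pools, against 5.52 and 5.44 in the others. That gene thus followed the sort labels. The Flattop-negative arrays differed from each other more than any other pair (r = 0.846 over all genes, against 0.953 to 0.984 among the Flattop-positive arrays). In Flattop-negative replicate 1 the hormone genes Sst and Ppy were at 8.08 and 8.98, against at least 12.32 and 12.44 elsewhere. In Flattop-negative replicate 2 the macrophage gene Lyz2 was at 9.41, against at most 4.58. Other immune genes were mixed on replicate 2. C1qc was at its highest there, 5.49, but Adgre1 was at 3.40 (3.55 on replicate 1). C1qa, at 5.84, lay below every Flattop-positive pool. Values without one of these arrays are given below for each listed ER gene called different whose difference moved by over 1.5 times. They are also given for some other genes. Changes of sign stand in the closing section.

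Many ER genes carry the ER stress response element (ERSE), the sequence through which ATF6 acts together with the factor NF-Y. It was searched in RefSeq promoter windows of build GRCm38.p6, each from 250 bases before to 50 after a gene's annotated start, as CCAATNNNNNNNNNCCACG on both strands. Windows were found for 43 of the 50 genes. Of these, 10 held an ERSE, or 23.3%, against 0.137% of all 27025 genes with a window (37 genes). The 7 genes below were chosen to show the element in a member of each role that holds it and in both main ER chaperones; the strand is that of the gene, and capitals mark the ERSE, which reads as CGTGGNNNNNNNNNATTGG where it lies on the opposite strand.
Hspa5 (chr2:34772000-34772068, plus strand): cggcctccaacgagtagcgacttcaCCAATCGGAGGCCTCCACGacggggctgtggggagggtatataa
Hsp90b1, distal copy (chr10:86705613-86705681, minus strand): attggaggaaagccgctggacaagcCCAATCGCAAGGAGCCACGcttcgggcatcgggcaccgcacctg
Hsp90b1, proximal copy (chr10:86705508-86705576, minus strand): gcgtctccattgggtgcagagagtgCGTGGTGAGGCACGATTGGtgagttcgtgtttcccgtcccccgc
Calr (chr8:84847050-84847118, minus strand): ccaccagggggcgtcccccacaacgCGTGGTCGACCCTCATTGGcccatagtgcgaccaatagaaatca
Creld2 (chr15:88819495-88819563, plus strand): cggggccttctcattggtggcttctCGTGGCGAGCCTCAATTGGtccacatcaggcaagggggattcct
Pdia6 (chr12:17266466-17266534, plus strand): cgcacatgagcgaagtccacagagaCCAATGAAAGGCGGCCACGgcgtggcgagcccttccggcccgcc
Derl3 (chr10:75893217-75893285, plus strand): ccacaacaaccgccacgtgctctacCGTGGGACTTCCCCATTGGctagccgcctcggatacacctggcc
Syvn1 (chr19:6046507-6046575, plus strand): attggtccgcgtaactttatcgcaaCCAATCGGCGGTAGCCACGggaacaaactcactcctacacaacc

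The element began 65 bases before the annotated start in Hspa5 and 44 bases before it in Syvn1, and Hsp90b1 held 2 copies, at 212 and 107 bases. Canx, Dnajc3 and Ero1lb held it too. The related ERSE-II, searched as ATTGGNCCACG, was found in 2 of the 43 genes, Herpud1 and Dnajb11, and in 12 of all 27025 (0.0444%). It is shown for Herpud1, a UPR target of the ERAD complex, with the ERSE-II in capitals.
Herpud1 (chr8:94386352-94386412, plus strand): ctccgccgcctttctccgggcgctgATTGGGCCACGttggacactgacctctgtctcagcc

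The letters TGACGTGG, a form of the XBP1 site, were in 0 of the 43 windows and in 0.714% of all genes, and TGATGNAA, a form of the ATF4 site, in 2 (Herpud1 and Trib3), against 4.51% of all genes. Parts of these motifs overlap: CCACG ends both ERSE forms, and the complement of TGACGTGG begins with CCACG. A match describes the letters only.

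Of the 48 ER genes, 46 had a higher mean signal in the Flattop-positive than in the Flattop-negative arrays, with a median log2 difference of 0.71 against -0.10 over all genes. By limma's test, 0 of the 48 passed an adjusted p of 0.05 (smallest 0.198), as did 0% of all genes. A gene is called different from here on where its unadjusted p was under 0.05 and its fold 1.5 or more; by that rule 20 of the 48 were called higher in the Flattop-positive pools and 0 lower. Of all genes, 8.08% were called higher and 3.74% lower. The Flattop-positive arrays all lay above both Flattop-negative arrays for 24 of the 48, against 13.7% of all genes, and below both for 0, against 21%. Whatever the fold, 20 ER genes had an unadjusted p under 0.05, against 13.8% of all genes.

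**Figure D1:**
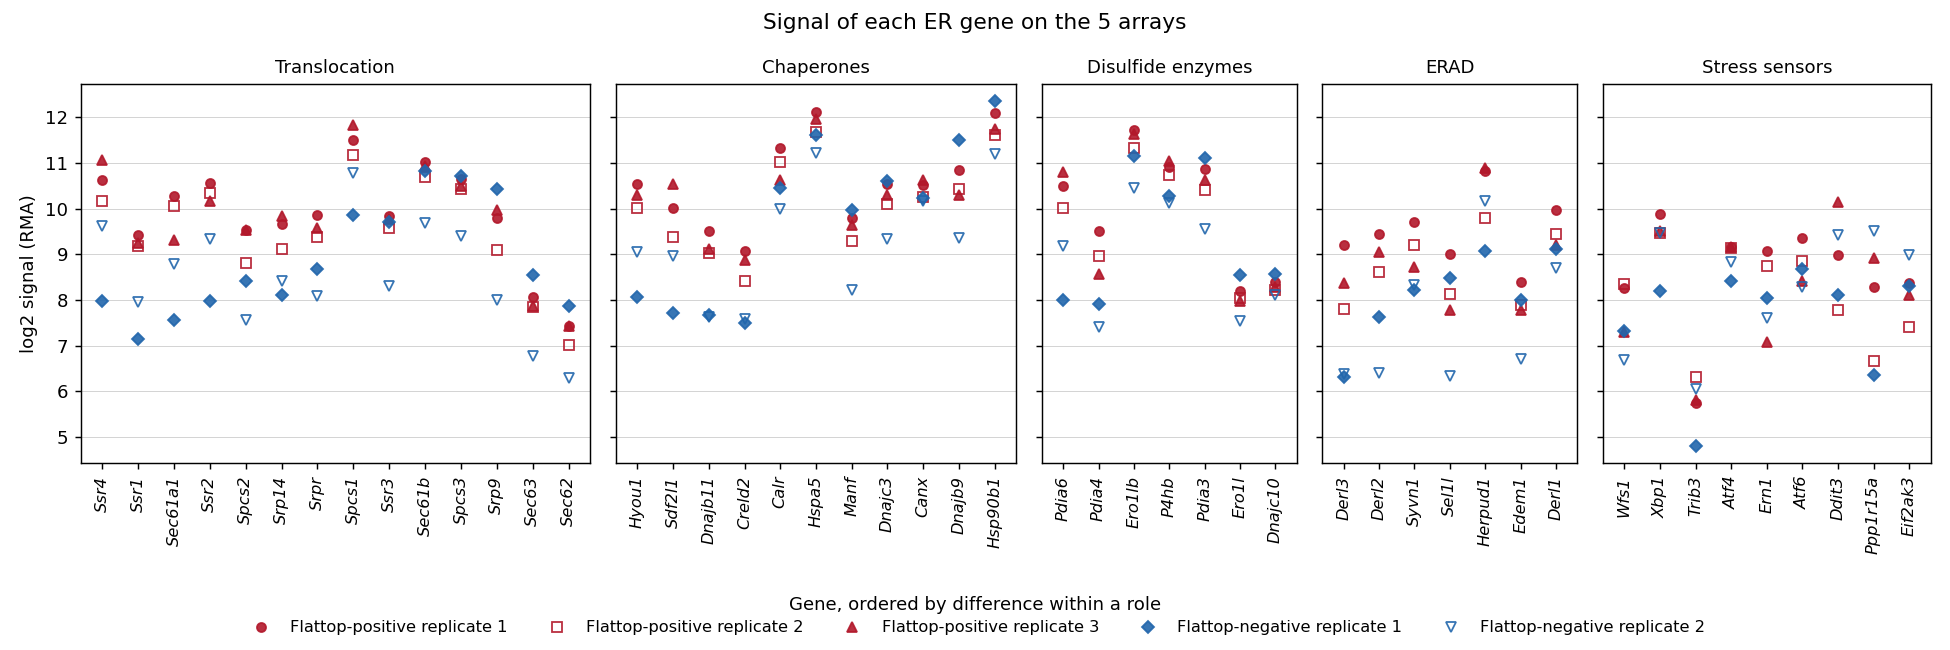
Signal of the 48 ER genes on each array, in 5 panels by role; the vertical axis is log2 signal, each point is 1 array, red marks Flattop-positive and blue Flattop-negative pools, and genes run from the largest to the smallest difference. Derl3, Ssr1, Dnajb11 and Creld2 show both blue points below all red ones, while for Srp9, Dnajb9 and Hsp90b1 the 2 blue points lie on opposite sides of the red ones.

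ER genes are bright, and on these arrays bright genes as a whole lay higher in the Flattop-positive pools. The median difference of all genes was -0.25 at a mean signal under 4 and reached 0.55 between 9 and 10 and 0.70 between 10 and 11. Above 11, the range of Hspa5, Hsp90b1, Spcs1 and Ero1lb, it was 0.26, with 8.14% of 86 genes called higher. The fairer background for these genes is therefore the 1650 genes with a mean signal of at least 8. Among those, 25.9% were called higher, 0.424% lower, and the median difference was 0.50. Of the 40 ER genes that bright, 19 (47.5%) were called higher, with a median of 0.74. The Flattop-positive arrays lay wholly above for 23 of the 40 (57.5%), against 37.8% of all genes that bright, and wholly below for 0, against 2.24%. The excess was not even over the signal ranges. Called higher were 7 of 14 ER genes at 8 to 9, 8 of 13 at 9 to 10 and 2 of 4 above 11. The shares of all genes there were 25.3%, 29.5% and 8.14%. Between 10 and 11 only 2 of 9 ER genes were called, with a median of 0.46. That was below the 31.7% and 0.70 of all genes in that range.

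**Figure D2:**
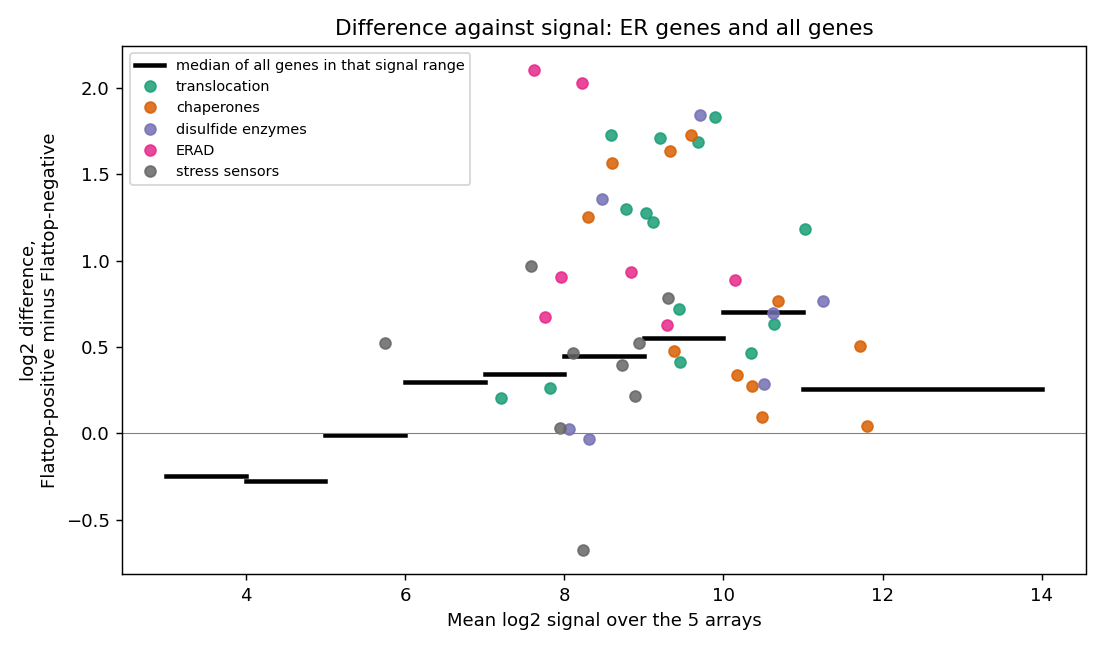
Log2 difference (Flattop-positive minus Flattop-negative, vertical axis) against mean log2 signal over the 5 arrays for each ER gene, coloured by role; black bars are the median of all genes in each signal range, with genes under 4 drawn from 3 to 4. Most translocation genes lie above the bar of their range, and the stress sensors lie near or below theirs except Wfs1, Xbp1 and Trib3.

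Of the genes of translocation, 14 of 14 measured had a difference above 0, with a median of 1.20, and 8 of 14 were called higher. Among all 1650 genes with a mean signal of at least 8, 1318 had a difference above 0 and 25.9% were called higher. The largest difference of the role, that of Ssr4, was in the TRAP complex. This complex sits beside the channel and helps it open for certain signal peptides. Ssr1, its α-subunit, was at 9.42, 9.18 and 9.25 in the Flattop-positive pools, against 7.15 and 7.96 in the Flattop-negative pools; values are given in this order from here on, each group by replicate number. The Flattop-positive values were tight and well apart from both others, and the difference was 1.73 ± 0.29 (SE), or 3.31-fold (limma adjusted p = 0.199). Ssr4, the δ-subunit, was at 10.64, 10.16 and 11.07 against 7.98 and 9.61, a difference of 1.83 ± 0.54. Ssr2, the β-subunit, was at 10.56, 10.34 and 10.16 against 7.99 and 9.35, a difference of 1.69 ± 0.42. For Ssr2 and Ssr4 the lowest value by far was that of Flattop-negative replicate 1. Without that array their differences were 1.01 each. Ssr3, the γ-subunit, was not called (0.72 ± 0.43): its Flattop-negative replicate 1 stood at 9.71, among the Flattop-positive values of 9.57 to 9.85, and replicate 2 at 8.31. Without replicate 2 the Ssr3 difference was 0.015.

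In the channel itself, Sec61a1, which forms the pore, was at 10.28, 10.06 and 9.32 against 7.57 and 8.78, without overlap, and its difference was 1.71 ± 0.46 (3.27-fold; limma adjusted p = 0.262). It was 1.10 without Flattop-negative replicate 1. Sec61b, a small subunit, was at 11.03, 10.69 and 10.94 against 10.82 and 9.68, so that the groups overlapped; the difference was 0.64, and 0.068 without Flattop-negative replicate 2. Its 3 probe sets disagreed on Flattop-negative replicate 1, at 10.82, 11.08 and 9.01, and their differences ran from 0.25 to 1.63. The partners that serve import after synthesis, Sec62 and Sec63, had differences of 0.20 ± 0.49 and 0.26 ± 0.52. For both, Flattop-negative replicate 1 was the highest of the 5 arrays (7.87 and 8.56) and replicate 2 the lowest (6.29 and 6.77).

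At the signal peptidase, Spcs1 was at 11.50, 11.18 and 11.83 against 9.86 and 10.78, and Spcs2 at 9.54, 8.80 and 9.52 against 8.41 and 7.57. Both were called higher, by 1.18 ± 0.35 and 1.3 ± 0.37. Without Flattop-negative replicate 1 the Spcs1 difference was 0.73. Spcs3 was not called (0.46 ± 0.41), with Flattop-negative replicate 1 at 10.73, above all 3 Flattop-positive arrays. In the targeting step, Srpr, the α-subunit of the SRP receptor, was at 9.86, 9.38 and 9.58 against 8.68 and 8.09 (1.23 ± 0.27; limma adjusted p = 0.221). Srp14 was at 9.66, 9.12 and 9.85 against 8.12 and 8.41 (1.28 ± 0.28; limma adjusted p = 0.221). Here the gaps between the Flattop-negative pools were 0.59 and 0.29. Srp9, which pairs with Srp14 in the particle, was read from a probe set with the widest gap of the role between Flattop-negative pools, 10.43 and 8.00, and had 0.41 ± 0.73. Its other probe set had 7.16 and 6.91 there against 8.27 to 8.58, a difference of 1.35.

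Of the chaperones and their partners, 5 of 11 were called higher and all 11 had a difference above 0, with a median of 0.50. Genes with a mean signal of at least 8 had a median of 0.50 as well, with 25.9% called higher. Hspa5, which encodes BiP, the master Hsp70 of the ER, was at 12.11, 11.68 and 11.97 against 11.62 and 11.22. All Flattop-positive values were higher, but by 0.50 ± 0.24 only (1.42-fold; limma adjusted p = 0.410), and Hspa5 was not called. The difference was 0.30 without Flattop-negative replicate 2. Hsp90b1, which encodes GRP94, was at 12.09, 11.62 and 11.76 against 12.36 and 11.20, so that the Flattop-negative pools enclosed the others (0.04 ± 0.39).

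Among the cofactors of BiP, 3 were called higher. Dnajb11, a J-protein that brings clients to BiP, was at 9.51, 9.04 and 9.11 against 7.67 and 7.64. Both Flattop-negative pools gave nearly the same value, and the difference of 1.57 ± 0.22 (2.96-fold) had the smallest adjusted p of the 48 genes (limma, 0.198). Sdf2l1, which binds Dnajb11, was at 10.02, 9.38 and 10.54 against 7.72 and 8.98, and Hyou1, the nucleotide exchange factor GRP170, at 10.54, 10.02 and 10.30 against 8.06 and 9.05. Their differences were 1.63 ± 0.50 and 1.73 ± 0.35, and without Flattop-negative replicate 1 that of Sdf2l1 was 1.0. Creld2, a UPR-induced protein of the ER, was at 9.08, 8.43 and 8.88 against 7.49 and 7.59 (1.25 ± 0.25), again with the Flattop-negative pools together.

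Other J-proteins were not called. Dnajb9, a J-protein that restrains IRE1, was at 10.85, 10.44 and 10.30 against 11.51 and 9.35 (0.09 ± 0.64), and Dnajc3, the J-protein p58IPK, at 10.53, 10.10 and 10.30 against 10.62 and 9.33 (0.34 ± 0.41). Manf, a secreted ER protein that supports β-cell survival, was at 9.80, 9.28 and 9.64 against 9.98 and 8.22 (0.47 ± 0.53). In all 3, Flattop-negative replicate 1 lay above every Flattop-positive array and replicate 2 below every one. Of the lectin chaperones, Calr was at 11.32, 11.03 and 10.63 against 10.46 and 9.999 and was called higher (0.77 ± 0.29). Canx was at 10.53, 10.26 and 10.62 against 10.24 and 10.16 (0.27 ± 0.20), not called.

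Among the disulfide enzymes, 4 of 7 were called higher, with a median of 0.69, beside 25.9% of all genes with a mean signal of at least 8. Pdia6, an isomerase that also acts on IRE1, was at 10.50, 10.02 and 10.80 against 8.01 and 9.18 (1.84 ± 0.42, 3.59-fold; limma adjusted p = 0.234). Pdia4 was at 9.51, 8.97 and 8.57 against 7.91 and 7.40 (1.36 ± 0.34). The other probe set of Pdia4 was near the floor on every array (4.15 to 4.47) with a difference of 0.05. P4hb, which encodes the classical protein disulfide isomerase, was at 10.90, 10.74 and 11.06 against 10.29 and 10.12. Its difference was small but even, 0.69 ± 0.20, and it was called higher. Pdia3, the isomerase that works with calnexin and calreticulin, was not called (0.29 ± 0.48), with Flattop-negative replicate 1 at 11.12, the highest of the 5, and replicate 2 at 9.56, the lowest.

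The 2 ER oxidases, which pass electrons from the isomerases to oxygen, differed in their values. Ero1lb, the form abundant in the pancreas, was at 11.73, 11.32 and 11.64 against 11.14 and 10.45 and was called higher (0.77 ± 0.28). Without Flattop-negative replicate 2 the Ero1lb difference was 0.42. Ero1l, the widely expressed form, was at 8.19, 8.04 and 7.98 against 8.56 and 7.54 (0.02 ± 0.33). Whether the oxidases differ from each other in response was not tested. Dnajc10, a J-domain reductase that opens disulfides before degradation, was at 8.40, 8.23 and 8.28 against 8.57 and 8.10 (-0.04 ± 0.22).

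Of the ERAD genes, 3 of 7 were called higher, with a median of 0.91, beside 23.0% of all genes with a mean signal of at least 7. Derl3, a derlin typical of secretory cells and induced by the UPR, was at 9.20, 7.80 and 8.38 against 6.32 and 6.39. The Flattop-positive pools varied over 1.40 units, yet the lowest lay well above both Flattop-negative pools, and the difference was 2.10 ± 0.42 (4.30-fold; limma adjusted p = 0.214). Derl2 was at 9.44, 8.62 and 9.06 against 7.63 and 6.40 (2.03 ± 0.44, 4.07-fold; limma adjusted p = 0.220). Derl1 was at 9.98, 9.46 and 9.20 against 9.12 and 8.71, also without overlap, but by 0.63 ± 0.30 and not called.

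The ubiquitin ligase of the pathway, Syvn1 (HRD1), was at 9.71, 9.20 and 8.73 against 8.22 and 8.34 and was called higher (0.94 ± 0.32). Its partner Sel1l, which holds the complex together, was at 9.02, 8.14 and 7.79 against 8.49 and 6.33, with overlap (0.91 ± 0.71). Edem1, a lectin that hands glycoproteins to ERAD, was at 8.40, 7.89 and 7.78 against 8.00 and 6.70 (0.67 ± 0.44), and Herpud1 at 10.82, 9.79 and 10.88 against 9.06 and 10.16 (0.89 ± 0.49). For Sel1l and Edem1 the low array was Flattop-negative replicate 2, and for Herpud1 it was replicate 1. Without the low array the differences of Edem1 and Herpud1 were 0.022 and 0.34.

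**Figure D3:**
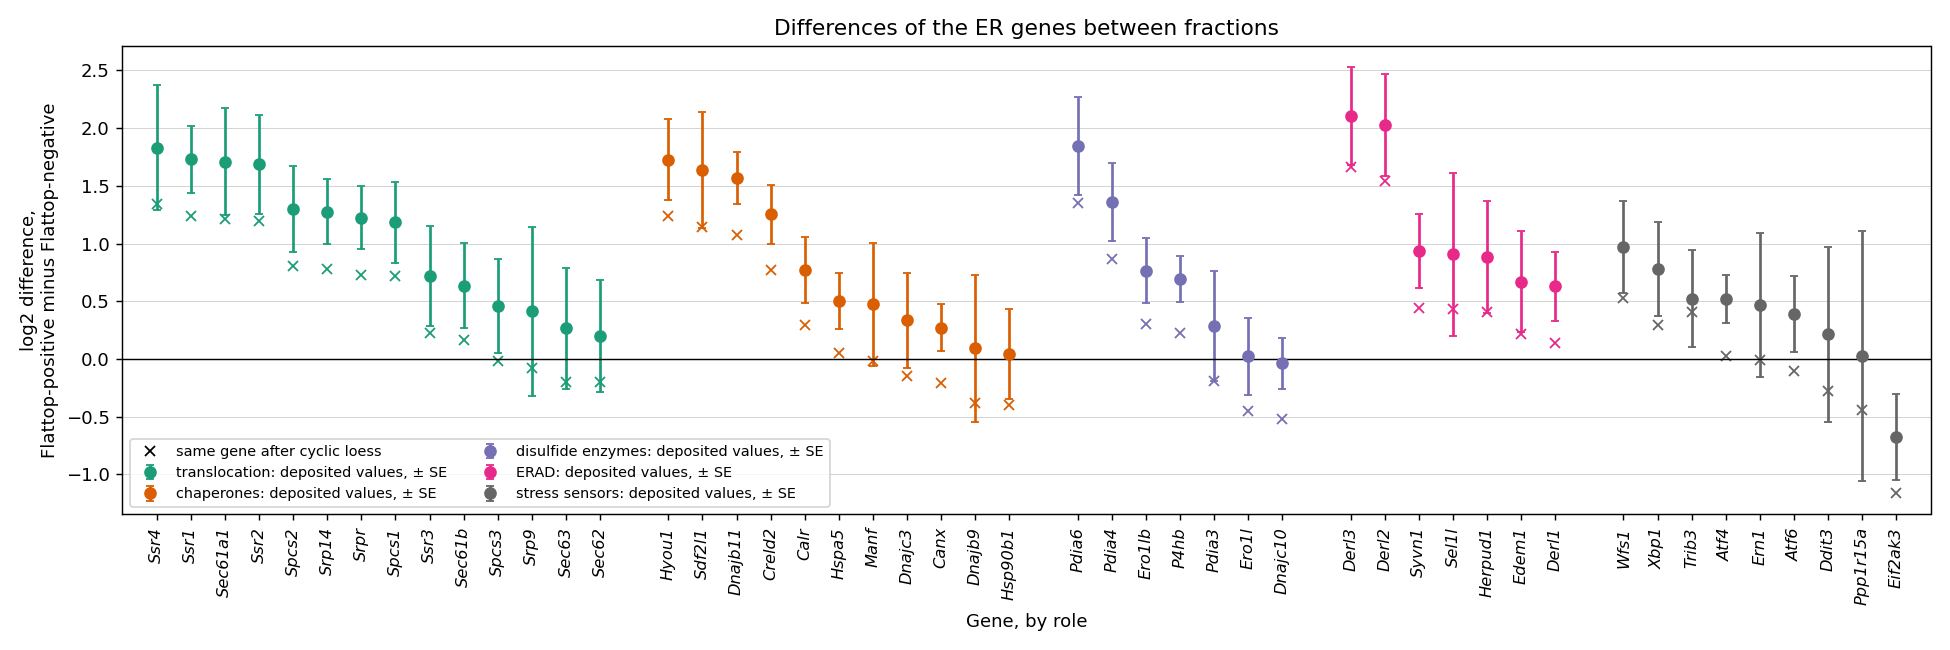
Log2 difference of each ER gene (Flattop-positive minus Flattop-negative, vertical axis) by role; points are from the deposited values with the SE of limma's fit, and crosses are the same genes after cyclic loess normalisation. Derl3 and Derl2 are highest, at 2.10 and 2.03, Eif2ak3 is lowest at -0.68, and every cross lies below its point.

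Normalising the arrays again by cyclic loess, which evens out shifts that depend on signal, lowered the median over the 48 genes to 0.26, while that of all genes was -0.01. In that setting 11 of the 48 were called higher (22.9%), against 3.84% of all genes, and 1 lower, Eif2ak3 (-1.16), against 3.03%. Among all genes with a mean signal of at least 8 the median after cyclic loess was 0.009. Shares called at that signal were not counted in that setting. The role medians became 0.73 for translocation, 0.06 for chaperones, 0.22 for disulfide enzymes, 0.44 for ERAD and -0.01 for stress sensors. Derl3, Derl2, Pdia6 and Ssr4 still had 1.66, 1.54, 1.36 and 1.35.

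Among the sensors and effectors of the UPR, 0 of 9 were called in either direction. Genes with a mean signal of at least 7 were called higher for 23.0% and lower for 0.668%. The median over the 9 was 0.47. That median ran from 0.15 without Flattop-negative replicate 1, and 0.21 without Flattop-positive replicate 1, to 0.73 without Flattop-negative replicate 2. Ern1, which encodes IRE1, was at 9.08, 8.74 and 7.08 against 8.05 and 7.62 (0.47 ± 0.63), and Atf6 at 9.36, 8.86 and 8.41 against 8.68 and 8.29 (0.39 ± 0.33). The groups overlapped for both sensors, and without Flattop-negative replicate 2 the differences were 0.25 and 0.20. Eif2ak3, which encodes PERK, was at 8.37, 7.42 and 8.12 against 8.32 and 8.98 with a difference of -0.68 ± 0.37 (limma adjusted p = 0.458), and of -0.35 without Flattop-negative replicate 2. Xbp1, whose mRNA is spliced by IRE1, was at 9.88, 9.48 and 9.51 against 8.20 and 9.48 (0.78 ± 0.41). Only Flattop-negative replicate 1 was apart there, and without it the difference was 0.15. The spliced and unspliced forms are not told apart by this probe set. Wfs1, the ER membrane protein mutated in Wolfram syndrome, was at 8.26, 8.35 and 7.31 against 7.32 and 6.69 (0.97 ± 0.40). The groups overlapped narrowly, at the lowest Flattop-positive and the higher Flattop-negative value.

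In the PERK arm below the sensor, Ddit3 and Ppp1r15a varied widely between pools of both groups, and Atf4 did not in the Flattop-positive group. Atf4, whose protein level is set mainly by translation, was at 9.16, 9.14 and 9.16 against 8.42 and 8.84. Its Flattop-positive values were the tightest of the 48 genes and lay above both others, but the difference of 0.52 ± 0.21 stopped short of the call (limma adjusted p = 0.361) and was 0.31 without Flattop-negative replicate 1. Ddit3, which encodes CHOP, was at 8.99, 7.79 and 10.15 against 8.10 and 9.42 (0.21 ± 0.76). Ppp1r15a, which encodes GADD34 and reverses PERK's block on translation, was at 8.28, 6.68 and 8.92 against 6.36 and 9.51 (0.03 ± 1.08), with the widest spread of the 48 genes. Trib3, a pseudokinase induced by ATF4 and CHOP, was at 5.74, 6.32 and 5.81 against 4.81 and 6.06 (0.52 ± 0.42).

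High Ddit3 and Ppp1r15a went with immediate early and heat shock genes, array by array. The mean of 15 such genes was 9.79 on Flattop-positive replicate 3 and 9.77 on Flattop-negative replicate 2, the 2 arrays highest for both genes, and 6.93 to 7.91 on the other 3. Atf3, named after its values were seen, was at 11.51 and 11.74 on those 2 arrays and at 5.27 to 7.61 on the others. Each group thus held at least 1 pool with high and 1 with low values. With Flattop-negative replicate 1 left out the difference of Ppp1r15a was -1.55, and with replicate 2 left out it was 1.60. For Ddit3 those values were -0.45 and 0.87. The part of these genes in the other ER values was not tested.

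**Figure D4:**
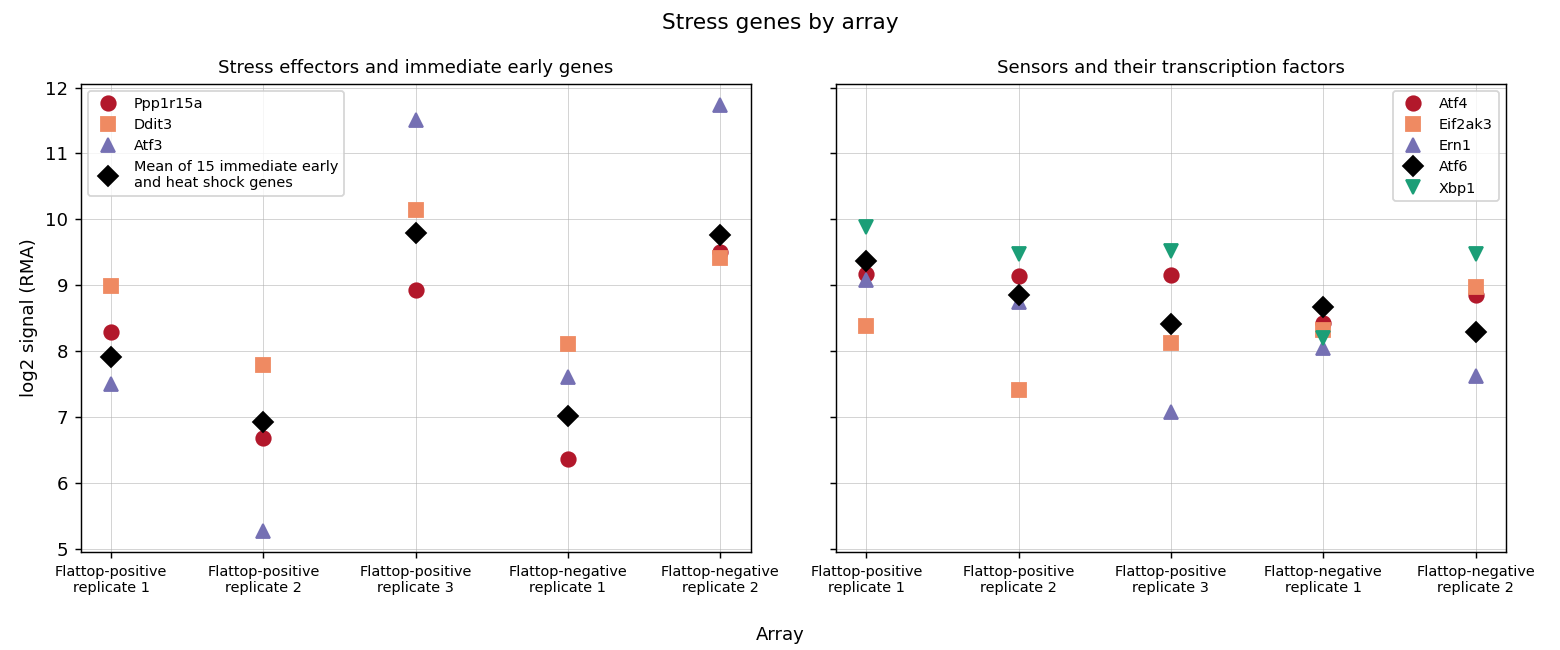
Log2 signal (vertical axis) on each of the 5 arrays (horizontal axis) of the stress effectors Ppp1r15a, Ddit3 and Atf3 with the mean of 15 immediate early and heat shock genes (left), and of the sensors and their factors (right). The left panel is highest on Flattop-positive replicate 3 and Flattop-negative replicate 2, and Xbp1 in the right panel is low on Flattop-negative replicate 1 alone.

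The spread between the Flattop-negative pools sets the limit of most of these comparisons. Their gap was over 1 log2 unit for 25 of the 48 genes. It was that wide for 44.6% of all genes with a mean signal of at least 8, and for 21.3% of all genes. The median gap was 1.05 over the 48 genes and 0.87 over all genes with a mean signal of at least 8. The median range of the 3 Flattop-positive pools was 0.60. Flattop-negative replicate 2 was the lowest of the 5 arrays for 28 genes and replicate 1 for 17, and a Flattop-positive array was lowest for 3, all of them stress sensors. In 15 genes replicate 1 exceeded replicate 2 by over 1 unit, among them Sec62, Sec63, Srp9, Dnajb9, Manf, Pdia3 and Sel1l. In 10 genes it was the other way, among them Sec61a1, Ssr2, Ssr4, Sdf2l1, Pdia6, Xbp1 and Ppp1r15a. Within the Flattop-positive group, replicate 1 lay above replicate 2 for 46 of the 48. The median signal of all genes with a mean signal of at least 8 was also higher on replicate 1, at 9.03 against 8.88. These orders of the arrays were not counted over all genes.

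Without Flattop-negative replicate 1, 28 of the 48 were called higher (58.3%), against 12.2% of all genes, and the median was 1.04. Without replicate 2, 18 were called higher, against 12.6% of all genes, and 2 lower, and Ssr1, Ssr2 and Hyou1 passed over all genes (limma adjusted p = 0.0412, 0.0412 and 0.0478), with the remaining Flattop-negative array assumed to vary like the Flattop-positive group. The 2 called lower there were Dnajb9 (-0.98) and Sec63 (-0.63), against 11.04% of all genes. Among all genes with a mean signal of at least 8, the median was 0.51 without replicate 1 and 0.46 without replicate 2. Shares called at that signal were not counted in these refits. The chaperone median was 1.0 with replicate 1 left out and 0.30 with replicate 2 left out.

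The differences were then set beside the ERSE matches. As a background, 8.08% of all genes were called higher. Among genes with a mean signal of at least 8, 25.9% were called higher and the median difference was 0.50. The 10 genes with an ERSE in the window had a median difference of 0.77, from 0.04 for Hsp90b1 to 2.10 for Derl3, and 6 of them were called higher. The 31 measured genes with a window but no ERSE had a median of 0.69, and 11 were called higher. The order turned without either Flattop-negative array, to 0.99 with and 1.06 without an ERSE when replicate 1 was left out, and to 0.48 and 0.73 when replicate 2 was. Hsp90b1, with its 2 copies shown above, had the smallest difference of the ERSE genes. Dnajb11 and Herpud1, the pair with ERSE-II, had 1.57 and 0.89.

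Other genes of the same route were followed in a separate list of 125, of which 118 were measured. Of these, 40 were called higher and 0 lower, with a median of 0.63 and 0 past limma's adjusted threshold. That is 33.9% called higher, against 8.08% of all genes, 20.9% of genes with a mean signal of 7 to 8 and 25.9% of those at 8 or more, whose median was 0.50. The oligosaccharyltransferase, which attaches N-glycans to chains as they enter, and the enzymes that trim those glycans gave the highest median, 0.99, with 11 of 16 called higher. Ostc was at 11.12, 10.70 and 10.99 against 9.23 and 9.44, a difference of 1.60. Rpn1 was at 9.88, 9.55 and 9.73 against 8.49 and 8.06, and Stt3a, a catalytic subunit, at 9.97, 9.92 and 9.97 against 8.97 and 8.81. In all 3 the groups were well apart and the pools of a group close. Their differences, 1.44 for Rpn1 and 1.06 for Stt3a, had adjusted p-values of 0.198 and 0.199 in limma.

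The lists that follow can be set beside the shares of all genes given above. Those were 20.9% at a mean signal of 7 to 8 and 25.9% at 8 or more. Further targeting and cleavage genes were called higher for 4 of 13 (30.8%). Among them were the signal peptidase subunit Sec11a (1.68), the SRP receptor β-subunit Srprb (1.08) and Asna1, the targeting factor for tail-anchored proteins (1.62). Other chaperones and prolyl isomerases were called higher for 6 of 20, among them the isomerases Ppib (2.0) and Fkbp9 (1.5). Of the other disulfide and redox enzymes, 6 of 14 were called higher, with Txndc12 at 1.34 and Tmx1 at 1.31. Other ERAD genes gave 4 of 20, a share near that of all genes of such signal, with Selenos, listed under its older symbol Vimp, at 1.54. The ATF4 and integrated stress response list gave 6 of 26, also near that share, among them the aminoacyl-tRNA synthetases Sars (1.22) and Wars (1.86) and the mitochondrial folate enzyme Mthfd2 (1.10). Its other members include Asns (0.53) and Chac1 (0.61), neither called. ATF6's relative Atf6b (0.83), the protease Mbtps1 (0.95), which cuts ATF6, and Creb3 (1.71) were called higher, 3 of the 9 in their list; that of Creb3 was 1.12 without Flattop-negative replicate 1.

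Markers of the cell types a pool could hold moved with the groups in part. The 10 β-cell markers, 9 of them above the floor on every array, averaged 10.23 to 10.38 on the Flattop-positive and 9.24 and 9.29 on the Flattop-negative arrays. Called higher were 7 of 10, beside 25.9% of all genes with a mean signal of at least 8. The hormone genes Ins2 and Iapp were not called, with differences of only 0.18 and 0.10, nor was Mafa (0.84). The floor on an array is the signal below which 95% of its 1027 olfactory receptor genes lay. It was 4.29, 4.44 and 4.45 on the Flattop-positive arrays and higher on the Flattop-negative arrays, at 4.75 and 4.86. The part of β-cell content in the ER differences was not tested. Acinar cells are also rich in ER. Their 10 measured markers averaged 4.64 to 4.80 on the Flattop-positive and 4.91 and 5.47 on the Flattop-negative arrays, so that they were highest on Flattop-negative replicate 2. Of the 10, 2 were called lower and 0 higher. Dim genes as a whole lay lower in the Flattop-positive pools. Among all genes with a mean signal of 4 to 5, 7.87% were called lower and the median difference was -0.28. At 5 to 6 those values were 3.54% and -0.01. The averages of dim markers here and below carry that shift. Prss2 and Cel were at or below the floor on all 5, Ctrb1 and Cpa1 reached 6.86 and 6.53 on Flattop-negative replicate 2, and Bhlha15 was above the floor on all 5, with a difference of 1.27, not called. Of 9 measured B and plasma cell markers, 0 were above the floor on every array and 5 (Ms4a1, Jchain, Tnfrsf17, Sdc1 and Irf4) were at or below it on all, with means of 3.77 to 4.06 against 3.96 and 4.26. Cd79a of that list was called higher, at 5.21, 4.75 and 4.90 against 3.17 and 4.38, and 1 other marker was called lower. The Cd79a difference was 1.18, and 0.57 without Flattop-negative replicate 1. The 6 measured α-cell markers averaged 7.56 to 7.82 against 7.55 and 8.65, and 1 of them, Smarca1, was called lower (-1.87). The 5 δ- and PP-cell markers averaged 8.56 to 9.13 against 6.85 and 9.94. The 7 stellate and mesenchymal markers averaged 4.46 to 4.77 against 4.73 and 5.69. The 11 immune markers averaged 4.61 to 4.76 against 4.52 and 5.66. Among the immune markers 1, C1qa, was called higher (1.32), and 2, C1qc and Cd14, were called lower. Without Flattop-negative replicate 1 the C1qa difference was 0.88. That of Cd14 was -0.94, and -0.59 without Flattop-negative replicate 2. The part of these cell types in the ER differences was not tested either.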

How the data were processed

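Per the submitters' processing notes the arrays were summarised with RMA (Affymetrix Expression Console, version 1.3.0.187); the authors deposited the result as log2 signals, with no build stated in the sources used here. Of 35556 probe sets, 21789 carried 1 symbol in the platform annotation (1621 several, 12146 unlisted), and the brightest per gene was kept. Listed symbols were matched directly or through synonyms in the GRCm38.p6 gene table. The fractions were then compared in limma (3.58.1, under R 4.3.3) with group as the only term, two-sided, with Benjamini-Hochberg adjustment over 19938 genes; the model was checked on simulated data. By exact permutation of 3 and 2 pools, no p below 0.1 was possible. The p-values set each difference against the spread between these pools, with each gene's variance moderated by that of all genes. The number of arrays limits precision. The ER genes and lists were chosen with earlier results of these data known. Named are all ER genes and at most 3 called genes per direction from each other list. The labels state no pairing of the pools. For the 2 shared replicate numbers, deviations from group means correlated at 0.18 and -0.14. With only 2 Flattop-negative arrays their deviations mirror each other, so these correlations cannot exclude pairing. Alternatives were a replicate block, each array left out, repeated quantile normalisation, centring, cyclic loess, dim genes (mean under 5) left out, mean of probe sets, a variance trend, array weights and stricter calls. Tables and plots used pandas 2.3.3 and matplotlib 3.10.9.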

Additional observations from a re-analysis of the deposited data

How the results depend on the processing

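The 2 Flattop-negative pools and the shift with signal limit these results most; no ER gene reached limma's adjusted threshold except 3 without Flattop-negative replicate 2. The count over all genes past that threshold was 0 except there (0 to 434 with single arrays left out). The count called higher, 20 as reported, was 11 after cyclic loess and 11 at an unadjusted p under 0.01, and the count called lower, 0 as reported, was 1 on repeated quantile normalisation and 1 after cyclic loess, Eif2ak3 both times. With single arrays left out those counts ran from 14 to 28 and from 0 to 2. The median over all ER genes was 0.37 on repeated quantile normalisation and 0.26 after cyclic loess, and ran from 0.62 to 1.04 with single arrays left out. In the same order the translocation median was 0.88, 0.73 and 0.91 to 1.34, and that of disulfide enzymes 0.22, 0.22 and 0.42 to 1.06. The chaperone median was 0.055 after cyclic loess and 0.30 to 1.0 with single arrays left out, and the stress sensor median turned to -0.012 after cyclic loess and ran from 0.15 to 0.73 with single arrays left out. The ERAD median was 0.61 on repeated quantile normalisation, 0.44 after cyclic loess and 0.69 to 1.32 with single arrays left out. It moved by less than the SD between pools in every refit, but that SD, 0.72, was the largest of the roles. The ERAD median was below the translocation median as reported (0.91 against 1.20) but above it without Flattop-negative replicate 1 (1.32 against 1.14) and without replicate 2 (0.995 against 0.905). The same held without Flattop-positive replicate 3 and with the replicate block (1.17 against 1.07 in both). The replicate block gave 20 called higher and 0 lower, so it moved no count. Its differences were the same as those without Flattop-positive replicate 3, which shares its number with no other array.

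Some differences of genes that were not called changed sign; the cause was not tested. After cyclic loess these were Sec62 -0.20, Sec63 -0.20, Spcs3 -0.015, Srp9 -0.076, Hsp90b1 -0.40, Dnajb9 -0.38, Dnajc3 -0.14, Manf -0.018, Canx -0.21, Pdia3 -0.19, Ero1l -0.45, Ern1 -0.012, Atf6 -0.10, Ddit3 -0.28 and Ppp1r15a -0.44. On repeated quantile normalisation they were Sec62 -0.066, Sec63 -0.051, Spcs3 -0.039, Srp9 -0.087, Hsp90b1 -0.22, Dnajb9 -0.35, Dnajc3 -0.17, Manf -0.0048, Canx -0.19, Pdia3 -0.14, Ero1l -0.31, Ddit3 -0.11 and Ppp1r15a -0.32. Without Flattop-negative replicate 2 they were Sec62 -0.59, Sec63 -0.63, Spcs3 -0.20, Srp9 -0.80, Hsp90b1 -0.54, Dnajb9 -0.98, Dnajc3 -0.31, Manf -0.40, Pdia3 -0.49, Ero1l -0.48 and Sel1l -0.17. With replicate 1 left out instead, Sec63 1.16, Spcs3 1.12, Srp9 1.63, Dnajb9 1.17, Manf 1.35, Ero1l 0.53 and Sel1l 1.98 were above 0. Leaving out Flattop-negative replicate 1 also gave Dnajc10 0.20, Ddit3 -0.45, Trib3 -0.10 and Ppp1r15a -1.55, against Dnajc10 -0.27, Ddit3 0.87, Trib3 1.15 and Ppp1r15a 1.60 without replicate 2. Leaving out Flattop-positive replicate 1 gave Hsp90b1 -0.091, Dnajb9 -0.066, Ero1l -0.037 and Ppp1r15a -0.13, and leaving out replicate 3 gave Ddit3 -0.37 and Ppp1r15a -0.45. The replicate block gave Ddit3 -0.37 and Ppp1r15a -0.45, centring gave Dnajc10 0.034, and array weights gave Ppp1r15a -0.052. The 20 genes called higher kept their sign in every setting tried. For each of them every Flattop-positive array lay above both Flattop-negative arrays. Leaving out or reweighting arrays therefore could not change that sign.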
